A study of Mus musculus with 2 samples.

Results

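The genes of excitation-contraction coupling, the machinery that turns a muscle action potential into calcium release, were examined for DNA methylation in mouse myotubes. The members were listed by gene name for their role, with earlier results of these data known: Ryr1, Cacna1s, Cacng1, Stac3, Atp2a1, Casq1, Casq2, Jph1, Jph2 and Trdn, which are 10 of the 55413 genes annotated on assembled chromosomes. Myotubes had been differentiated from mouse C3H myoblasts and transfected with a control siRNA (siCon) or with siH19, which targets the long non-coding RNA H19. Genomic DNA was taken 48 h later, and 1 library was sequenced from each group, so both groups share the strain, the cell type and the transfection. No RNA was measured in these 2 libraries, so neither the depth of the knockdown nor the muscle identity of the cells was checked here. Methylation was read by reduced representation bisulfite sequencing (RRBS), in which DNA is cut at CCGG (MspI) and TCGA (TaqαI), short fragments are kept, and bisulfite leaves methylated cytosines as C while unmethylated ones are read as T. A level is the percentage of reads at a CpG cytosine that were methylated. The libraries held 104999613 reads summed over 5453019 cytosines in siCon and 106372792 reads over 5266846 cytosines in siH19.

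In a skeletal muscle fibre the voltage sensor of the transverse tubule, built around the Cacna1s product, is coupled directly to the calcium release channel RyR1 of the sarcoplasmic reticulum. Junctophilins hold both membranes together at the triad, triadin and the calsequestrins hold calcium near the release channel inside the store, and the SERCA1 pump returns calcium to it. DNA methylation is typically low at CpG-rich gene starts and high across transcribed gene bodies, and RRBS sees only CpGs that lie close to a cut site.

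Of the CpG cytosines in the bodies of the 10 genes and within 1 kb of their annotated transcript starts, 882 at 500 CpGs had at least 5 reads in each library and lay outside CCGG and TCGA. The median depth at these cytosines was 19 reads in siCon and 19 in siH19, with up to 126 and 128 reads. A further 677 cytosines lay inside the cut sequences, where end repair can write new bases, and were left out. The 882 cytosines were spread unevenly, with 384 in Ryr1, 146 in Jph2, 140 in Jph1, 71 in Cacna1s, 42 in Casq2, 35 in Atp2a1, 31 in Trdn, 19 in Cacng1, 10 in Stac3 and 4 in Casq1. Coverage of the CpGs outside cut sequences in a gene body was highest in Ryr1, at 11.5%, and lowest in Casq1, at 1.45%.

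The sequences that carry the pattern of levels come from GRCm38, on the strand of the gene, with the CpGs measured in both libraries in capitals. They were chosen after the values were seen, as runs of measured CpGs near a start and inside a later exon. A coding exon of Jph2, within 1 kb of its start, was nearly free of methylation, and Ryr1 had a stretch of low but variable methylation near its start.
Jph2 coding exon near the start, chr2:163397244-163397267, minus strand: CGcatggctttaaggggCGctaCG
Ryr1 exon and intron near the start, chr7:29124845-29124992, minus strand: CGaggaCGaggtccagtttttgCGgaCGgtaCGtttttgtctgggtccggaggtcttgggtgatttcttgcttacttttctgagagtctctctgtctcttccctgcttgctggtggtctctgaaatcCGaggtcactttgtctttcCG
The 3 CpGs of the Jph2 run gave 9 of 284 and 7 of 146 methylated reads. In the Ryr1 run the cytosines ranged from 0 to 57.1% in siCon and from 0 to 42.3% in siH19, with a median of 18.2% in both.

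Far from the start, CpG-dense coding exons of Ryr1 and Jph2 were largely methylated.
Ryr1 exon within a CpG island, chr7:29019819-29020016, minus strand: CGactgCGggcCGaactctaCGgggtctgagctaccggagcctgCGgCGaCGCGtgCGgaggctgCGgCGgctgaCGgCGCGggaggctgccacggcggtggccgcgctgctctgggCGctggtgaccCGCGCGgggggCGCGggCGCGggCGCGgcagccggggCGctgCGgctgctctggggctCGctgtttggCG
Jph2 exon within a CpG island, chr2:163339503-163339624, minus strand: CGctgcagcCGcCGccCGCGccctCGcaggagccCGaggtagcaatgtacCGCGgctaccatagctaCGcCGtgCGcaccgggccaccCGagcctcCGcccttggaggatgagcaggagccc
The Ryr1 run held 34 CpGs in 198 bases, of which 28 were measured, with a median level of 62.5% in siCon and 68.1% in siH19. The Jph2 run held 15 CpGs in 122 bases, of which 14 were measured, with medians of 75% and 72.1%. Its last base, at 163339503, is the measured cytosine of a further CpG that the window cuts. That cytosine is not in capitals but counts in these medians. Single cytosines ranged from 8.33 to 100% in the Ryr1 run in siCon and from 25 to 100% in siH19.

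Starts of most other members had few or no measured cytosines. The upstream sequences of Atp2a1 and of the outermost Trdn start are shown because they hold, respectively, 1 and 0 CpGs in 200 bases, with all CpGs in capitals.
Atp2a1 upstream, chr7:126463109-126463308, minus strand: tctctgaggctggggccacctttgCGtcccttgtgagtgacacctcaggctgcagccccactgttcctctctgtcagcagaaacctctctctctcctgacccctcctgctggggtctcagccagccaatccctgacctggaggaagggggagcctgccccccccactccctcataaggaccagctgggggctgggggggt
Trdn upstream, chr10:33080354-33080553, plus strand: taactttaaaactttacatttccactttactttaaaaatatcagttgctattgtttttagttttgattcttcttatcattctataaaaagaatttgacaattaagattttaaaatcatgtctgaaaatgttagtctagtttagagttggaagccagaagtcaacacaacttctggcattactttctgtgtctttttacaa
The windows around the 4 annotated Trdn starts, 4080 bp in all, held 15 CpGs and no CCGG or TCGA, and the Stac3 windows held no CCGG and 4 TCGA. Measured CpG cytosines were present near the starts of 5 of 10 members (Jph1 with 117, Jph2 with 14, Ryr1 with 14, Casq2 with 2, Cacng1 with 1), and near those of Cacna1s, Stac3, Atp2a1, Casq1 and Trdn there were none. The windows of Casq1, Cacna1s, Stac3 and Atp2a1 held 41, 39, 32 and 22 CpGs, against 42 in those of Ryr1. Why these starts went unmeasured was not tested. In 32851 RefSeq promoter sequences of the mouse (250 bases before to 50 after the start), CCGG was held by 52.8% and TCGA by 22.0%. Promoters of 6 members could be matched there, of which those of Atp2a1, Cacna1s, Casq1 and Jph2 held CCGG and that of Casq2 held TCGA. The same 4 genes as for CCGG held the E-box CAGCTG, the kind of sequence bound by myogenic factors such as MyoD, which was present in 16.3% of all these promoters (both sequences are the same on either strand). These matches describe letters in the sequence and no binding was measured.

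**Figure D1:**
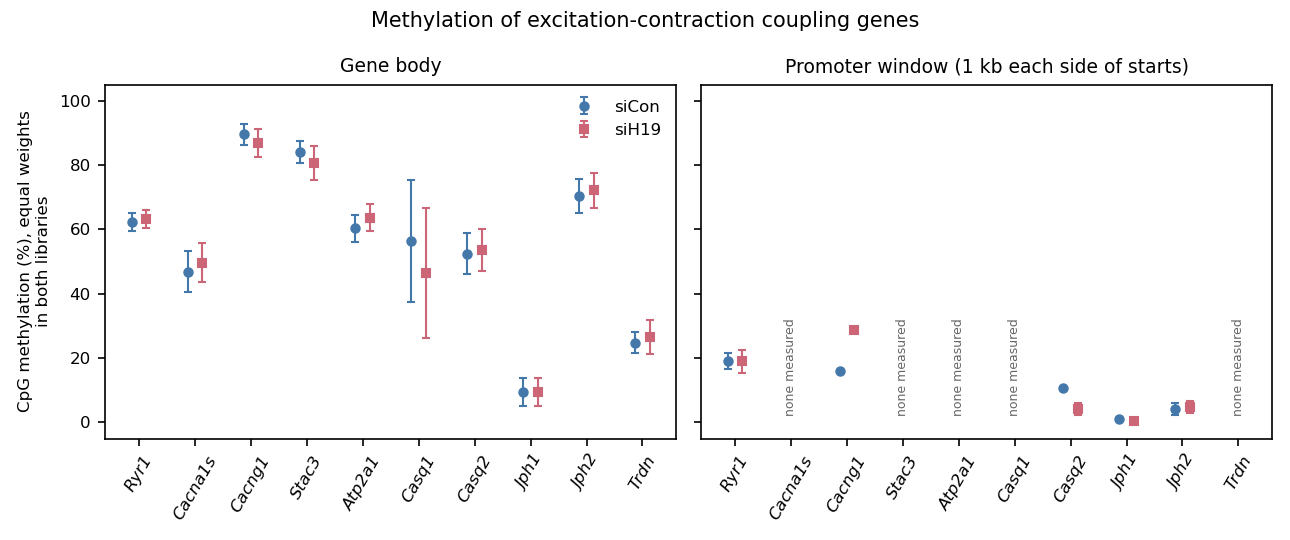
Methylation level (%) of each member in siCon (blue circles) and siH19 (red squares), in the gene body on the left and in the promoter windows on the right; bars are the standard error over restriction-fragment strands, and points without bars rest on a single fragment strand or have bars smaller than the point. Body levels run from 9.42% (Jph1) to 89.5% (Cacng1) in siCon, and in the bodies each siH19 point lies close to its siCon point except in Casq1, which rests on 4 cytosines.

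Body levels differed much more between members than between the 2 libraries. Each cytosine was given equal weight in siCon and siH19, so that an unequal spread of reads over a gene could not create a difference, and the standard errors (SE) are over strands of restriction fragments within the 2 libraries, not over cultures. Ordered by siCon level, the bodies of Cacng1 (89.5%), Stac3 (84.0%), Jph2 (70.4%), Ryr1 (62.2%), Atp2a1 (60.3%), Casq1 (56.3%), Casq2 (52.5%), Cacna1s (46.9%), Trdn (24.7%) and Jph1 (9.42%) spanned most of the range. Neighbours in this order differed by less than 2 combined SE, apart from the steps between Stac3 and Jph2, between Cacna1s and Trdn and between Trdn and Jph1. Among the 22105 gene bodies tested, the median siCon level was 25.6%, and 7 of the 9 members tested lay above the 75th percentile of 46.9%, Cacna1s by the least. The levels of different genes rest on different kinds of sequence and were compared as descriptions only.

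The test asked, for each gene, whether cytosines differed in 1 direction between the libraries by more than fragment strands of the gene differed among themselves. After Benjamini-Hochberg adjustment over all genes, 0 of 9 member bodies were called, and the background over all gene bodies was 0%. At an unadjusted p under 0.05 there was 1 of 9, Jph2, against a background of 5.82%. The differences were above 0 in 6 members and below 0 in 3, with a median of 1.13 percentage points, beside a median of 0.131 points over all gene bodies, of which 55.5% were above 0. These medians were not matched for level, and the median siCon level was 60.3% in the tested members against 25.6% in all bodies. The Cochran-Mantel-Haenszel test without the fragment scaling also called 0 members, against 3.79% of all gene bodies. These tests compare 2 libraries and not 2 conditions, since there was no second culture of either kind.

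**Figure D2:**
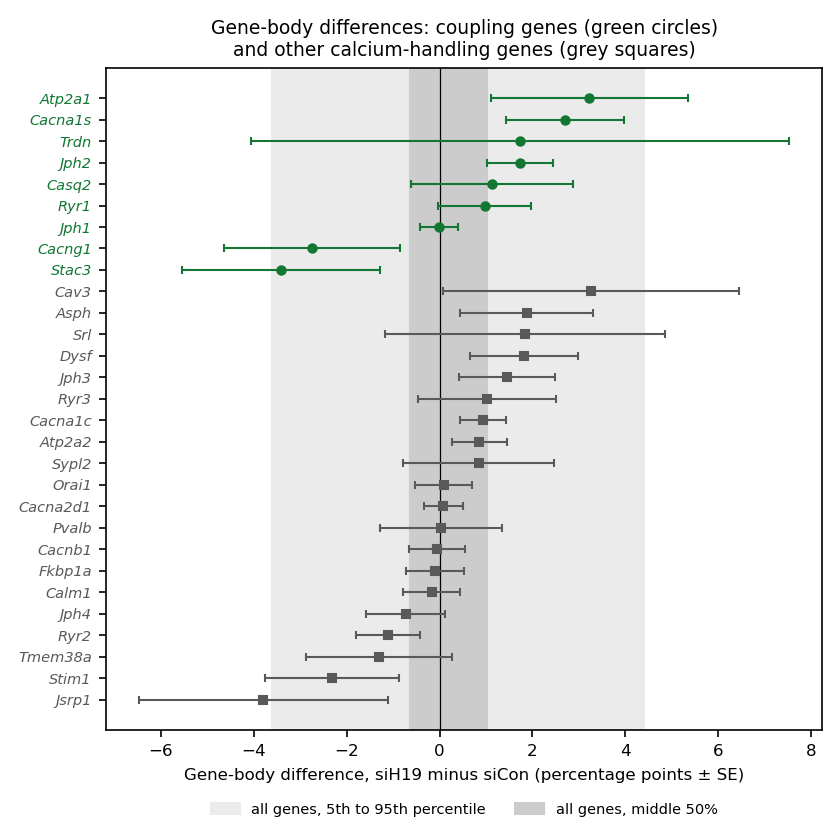
Difference in gene-body methylation, siH19 minus siCon, in percentage points with its SE over fragment strands, for the coupling genes (green circles) and for other calcium-handling genes (grey squares); the bands hold the middle 50% and the 5th to 95th percentile of all gene bodies. The 9 tested coupling genes lie between -3.42 and 3.23 points, inside the outer band of -3.62 to 4.41 points.

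Ryr1 encodes the calcium release channel of the sarcoplasmic reticulum and lies on the minus strand at chr7:29003344-29125179. Its 384 body cytosines on 108 fragment strands gave 62.2% ± 2.72 (SE) in siCon and 63.2% ± 2.71 in siH19. The difference of 0.97 points ± 1.00 was within its error (p = 0.300, adjusted p = 0.921, quasi-score test, n = 108 fragment strands). Coding exons outside the promoter windows were at 68.4% and 69.3%, introns at 49.0% and 50.7%, and the 14 cytosines near the start at 19.1% and 18.9%. So Ryr1 had a low start, intermediate introns and more methylated exons in both libraries. The longest dense stretch of the gene, chr7:29019362-29020234, lies 105.3 kb into the gene almost wholly in coding exon and in a CpG island, and held 131 of the cytosines. It stood at 66.3% in siCon and 69.5% in siH19, differing by 3.14 points ± 2.26. Of its cytosines 71 were higher in siH19, 49 lower and 11 equal. A second exonic island with 31 cytosines, at chr7:29085778-29086096, had 75.2% and 76.3%, with 14 cytosines higher and 14 lower. Stretches elsewhere in the gene leaned either way, from -7.80 points ± 4.32 at chr7:29097221-29097430 to 5.93 points ± 2.70 at chr7:29102880-29102917 among those with at least 8 cytosines.

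The Ryr1 start gave the lowest p-value of all member cytosines, at position 29124986 on the minus strand, in the coding exon 193 bases from the 5′ end (chosen after its value was seen). It had 0 of 70 methylated reads in siCon, with a Wilson 95% upper bound of 5.20%, and 16 of 103 in siH19, or 15.5% (9.79 to 23.8%). Fisher's exact test, two-sided, gave p = 0.000222 and an adjusted p of 0.383 over all 1850635 cytosines tested. The plus-strand cytosine of the same CpG went the other way, with 4 of 22 methylated reads in siCon and 0 of 32 in siH19 (Fisher's exact p = 0.0231). The start as a whole differed by -0.12 points ± 4.06 and was not called. Thus 2 strands of 1 CpG disagreed in direction, and the region showed no shared difference beyond the spread of its fragment strands.

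Cacna1s encodes the pore-forming subunit and voltage sensor of the skeletal muscle calcium channel, at chr1:136052750-136119822 on the plus strand. The 71 measured cytosines all lay in its body and gave 46.9% ± 6.30 in siCon and 49.6% ± 6.03 in siH19. The difference of 2.71 points ± 1.27 did not pass the test (p = 0.0602, adjusted p = 0.856, n = 33 fragment strands). Introns accounted for most of it, with 41.8% and 45.6%, while coding exons had 55.2% and 56.0%. With the reads simply summed, an alternative that ignores where the reads fell, the levels would read 44.2% and 54.5%, a gap of 10.3 points, so most of that gap came from the spread of reads over cytosines. Of its stretches, 2 that went opposite ways were picked after the values were seen. The stretch at chr1:136084273-136084699 went from 56.3% to 62.8%, with 9 cytosines higher and 4 lower. The stretch at chr1:136105463-136105581 went from 85.5% to 81.2%, with 2 higher and 7 lower.

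Cacng1, which encodes the gamma subunit of the same channel, was the most methylated member. Its 18 body cytosines, all intronic and at chr11:107703218-107716522 on the minus strand, gave 89.5% ± 3.24 in siCon and 86.8% ± 4.33 in siH19. The difference of -2.75 points ± 1.90 did not pass the test (p = 0.281, adjusted p = 0.920, n = 10 fragment strands). A single cytosine 215 bases upstream of its start had 7 of 44 methylated reads in siCon, 15.9% (Wilson 7.93 to 29.4%), and 26 of 91 in siH19, 28.6% (20.3 to 38.6%), with overlapping intervals (Fisher's exact p = 0.136).

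Stac3 encodes an adaptor needed to bring the voltage sensor to the triad and couple it to RyR1. Its 10 cytosines, 8 of them in 1 short stretch at chr10:127507662-127507807, gave 84.0% ± 3.27 in siCon and 80.6% ± 5.39 in siH19, differing by -3.42 points ± 2.14 over 3 fragment strands. This difference was not called. Methylation was uneven within the stretch. Both strands of 2 CpGs were at 92.9 to 100% in both libraries, whereas the coding-exon cytosine at 127507784 had 26 of 63 methylated reads in siCon and 8 of 28 in siH19, or 41.3% and 28.6%. Fewer reads stood behind siH19 here, at most 28 per cytosine against 63 in siCon.

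Atp2a1 encodes SERCA1, the calcium pump of fast muscle. Its body at chr7:126445858-126463108, on the minus strand, overlaps the annotated gene Rabep2, so cytosines in the shared part cannot be assigned to either gene alone. Every member but Jph2, Cacng1 and Stac3 overlaps some other annotated gene. The 35 cytosines gave 60.3% ± 4.12 in siCon and 63.6% ± 4.21 in siH19. The difference of 3.23 points ± 2.12 did not pass the test (p = 0.256, adjusted p = 0.910, n = 16 fragment strands). Exons had 58.7% and 62.6% and introns 61.9% and 64.5%. A coding-exon stretch of 12 cytosines at chr7:126459591-126459689 alternated between low and high CpGs in both libraries alike. The minus-strand cytosine at 126459615 had 5 of 37 and 4 of 20 methylated reads, while the one at 126459651 had 35 of 37 and 17 of 19. The stretch had 61.6% and 62.1% as a whole.

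Casq1 and Casq2 encode the calsequestrins, the calcium-binding proteins of the store, of fast and of slow and cardiac muscle. In Casq1 only 4 intronic cytosines of 2 CpGs were covered, which was too few for the test. At the CpG nearer the start, the plus strand had 16 of 18 methylated reads in siCon and 34 of 52 in siH19, and the minus strand 20 of 26 and 49 of 63. At the other CpG the plus strand had 3 of 45 and 0 of 9, and the minus strand 5 of 35 and 0 of 15. So 1 CpG was largely methylated and the other nearly unmethylated in both libraries. Its stratified level of 56.3% ± 18.9 in siCon and 46.3% ± 20.2 in siH19 has an error too wide to order the libraries.

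The Casq2 body, 40 intronic cytosines at chr3:102086415-102146514, had 52.5% ± 6.38 in siCon and 53.6% ± 6.65 in siH19, differing by 1.13 points ± 1.75 (p = 0.550, adjusted p = 0.965, n = 22 fragment strands). Its 2 cytosines near the start, the strands of 1 CpG, had 4 of 37 methylated reads in siCon and 1 of 24 in siH19, or 10.8% (Wilson 4.29 to 24.7%) and 4.17% (0.739 to 20.2%). A stretch of 10 cytosines in an intron, 12.95 kb into the gene, stood at 21.7% and 20.1%, well below the level of the body.

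Jph1 and Jph2 encode the junctophilins, which anchor the sarcoplasmic reticulum to the plasma membrane, Jph2 also in the heart. Jph1 had the lowest body level, since most of its measured cytosines lay in a nearly unmethylated CpG island around the start. Its body at chr1:16964560-17097889 had 9.42% ± 4.24 in siCon and 9.41% ± 4.42 in siH19, differing by -0.01 points ± 0.40 (p = 0.970, adjusted p = 1, n = 28 fragment strands). The promoter window, with 6.40 CpGs per 100 bp against 0.368 in Trdn, had 53 methylated of 4942 reads in siCon and 21 of 3938 in siH19. Its level was 1.01% ± 0.26 and 0.54% ± 0.16. The difference of -0.47 points ± 0.20 did not pass the test (p = 0.0407, adjusted p = 0.830, n = 16 fragment strands). Away from the start Jph1 was highly methylated, with 98.0% in siCon and 99.3% in siH19 over 8 coding-exon cytosines in a second island at chr1:17091893-17092025. Its 15 intronic cytosines had 75.8% ± 8.52 and 82.6% ± 5.73.

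The Jph2 body, at chr2:163336242-163397993, had 70.4% ± 5.25 in siCon and 72.1% ± 5.34 in siH19. It was the 1 member body with an unadjusted p under 0.05, with a difference of 1.73 points ± 0.71 (p = 0.0372, adjusted p = 0.835, n = 49 fragment strands). Coding exons were at 81.4% ± 5.40 and 84.4% ± 5.21, a difference of 2.96 points ± 0.63. The 4 cytosines of untranslated exons had 90.8% and 96.5%, a difference of 5.74 points ± 2.40. Introns had 68.0% and 66.8%, a difference of -1.22 points ± 1.52. The parts were described after the body value was seen and were not tested. The exon island at chr2:163339213-163339955 had 73.9% and 76.4%, with 28 cytosines higher in siH19, 15 lower and 10 equal. The exonic stretch at chr2:163375942-163376746 had 94.3% and 96.7%, with 12 higher and 12 lower. The start of Jph2 was low in both libraries, at 4.18% ± 1.75 and 4.72% ± 1.81, and was not called.

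Trdn encodes triadin, which links calsequestrin to RyR1. It is the longest member, 396.2 kb on the plus strand at chr10:33080554-33476709, and only 1.53% of its body CpGs outside cut sequences were covered. Its 31 intronic cytosines, 20 of them in soft-masked repeats, had 24.7% ± 3.29 in siCon and 26.5% ± 5.28 in siH19. The difference of 1.74 points ± 5.80 had the widest error of the tested members (p = 0.710, adjusted p = 0.983, n = 21 fragment strands). In the stretch at chr10:33268853-33268981 nearby cytosines went in opposite directions. The plus-strand cytosine at 33268860 had 11 of 20 methylated reads in siCon and 1 of 7 in siH19, while the minus-strand cytosine at 33268936 had 6 of 28 and 22 of 52. Stretches of the gene ran from -26.3 points at chr10:33170788-33170810 to 35.1 points at chr10:33211237-33211273, and the first was picked after the values were seen. There, in an intron, all 4 cytosines were lower in siH19, with 23 of 66 methylated reads in siCon and 4 of 46 in siH19. These reads are summed over the cytosines of 1 restriction fragment, which share reads. No single cytosine there had a p under 0.05 by Fisher's exact test. By contrast, both strands of the CpG at 33385318 were at 0 in both libraries, 0 of 37 and 0 of 30 reads in siCon and 0 of 6 and 0 of 12 in siH19.

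**Figure D3:**
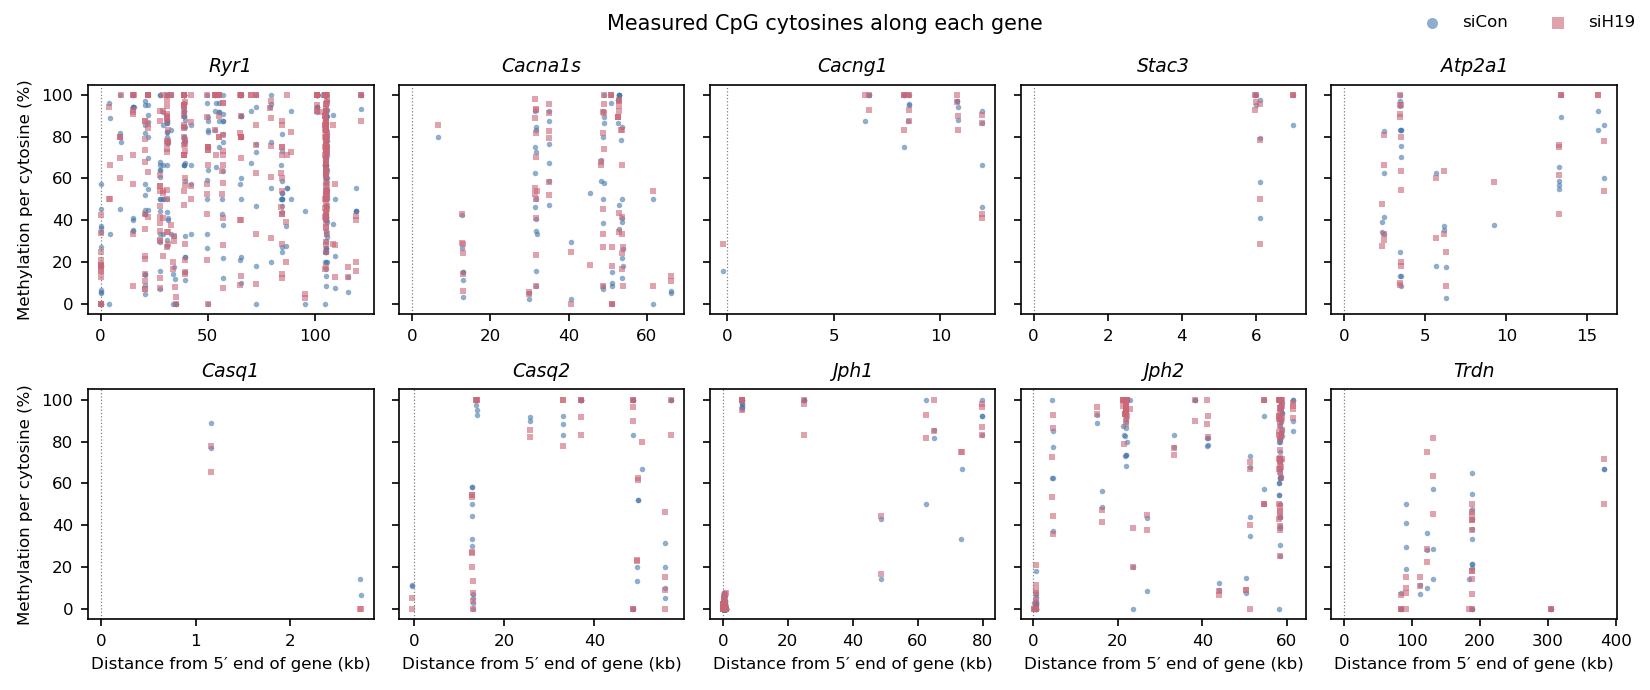
Methylation (%) of each measured cytosine against distance from the 5′ end of the gene (kb), 1 panel per member, in siCon (blue circles) and siH19 (red squares). The cytosines at the start of Jph1 and Jph2 lie near 0 and those of Ryr1 between 0 and 57.1%, while later exons reach 100% in both libraries.

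Summed over the members, levels were lowest in promoter windows, higher in introns and higher again in coding exons in both libraries, but Jph1 supplied 117 of the 148 promoter cytosines and Ryr1 301 of the 440 in coding exons. The 148 cytosines of promoter windows had 3.04% ± 1.29 in siCon and 2.79% ± 1.42 in siH19. Introns stood at 55.5% ± 2.94 and 56.7% ± 2.84 over 288 cytosines, and coding exons at 70.7% ± 2.00 and 72.2% ± 1.96 over 440. Casq1, Casq2, Trdn and Cacng1 gave intronic but no coding-exon cytosines here, so the pooled parts rest on different sets of genes. CpG islands outside promoter windows, 262 cytosines from Ryr1, Jph1 and Jph2, were at 75.2% ± 2.79 and 77.8% ± 2.56. Single members departed from the pooled order. In Atp2a1 exons were not above introns, at 58.7% against 61.9% in siCon and 62.6% against 64.5% in siH19. The single coding-exon cytosine of Stac3 stood at 41.3% in siCon, against 90.5% in its introns. Promoter levels in siCon were 19.1% in Ryr1 and 15.9% at the single Cacng1 cytosine. Island sequence was nearly unmethylated at the starts of the junctophilins, exons included, and methylated in later exons. Of 3 promoters that could be tested (Jph1, Jph2, Ryr1), 0 were called, against 0% of 18486 promoters, and 1 (Jph1) had an unadjusted p under 0.05, against 5.82% of all. Their differences were above 0 in 1 of the 3, against 55.6% of all promoters.

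At single cytosines, Fisher's exact test (two-sided) gave p under 0.05 at 31 of the 882, or 3.51%, against 2.53% of all 1850635 cytosines. Of the 31, 27 were higher in siH19, or 3.06% of the members' cytosines against 1.34% of all, and 4 were lower. Over all cytosines, 24777 of the 46765 with p under 0.05 in this test were higher and the rest lower. Adjusted over all cytosines, 0 of 882 passed, against 0.00648% of all, which is 120 cytosines. Strongly changed cytosines, with p under 0.05 and a difference of at least 33 points, numbered 15, or 1.70% of the members' cytosines against 0.987% of all. Without soft-masked repeats there were 7 of 809, or 0.865% against 0.805% of all, close to the background. Those higher in siH19 numbered 13, or 1.47% against 0.52% of all, and those lower numbered 2, or 0.227% against 0.467%. None of the 15 passed adjustment, 8 lay in soft-masked repeats (as do 73 of the 882) and 6 had fewer than 10 reads in a library. The members and all cytosines also differed in level, with 229 of the 882 below 20% in siCon against 54.1% of all. The shares compared here were not matched for level, and their differences were not tested.

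**Figure D4:**
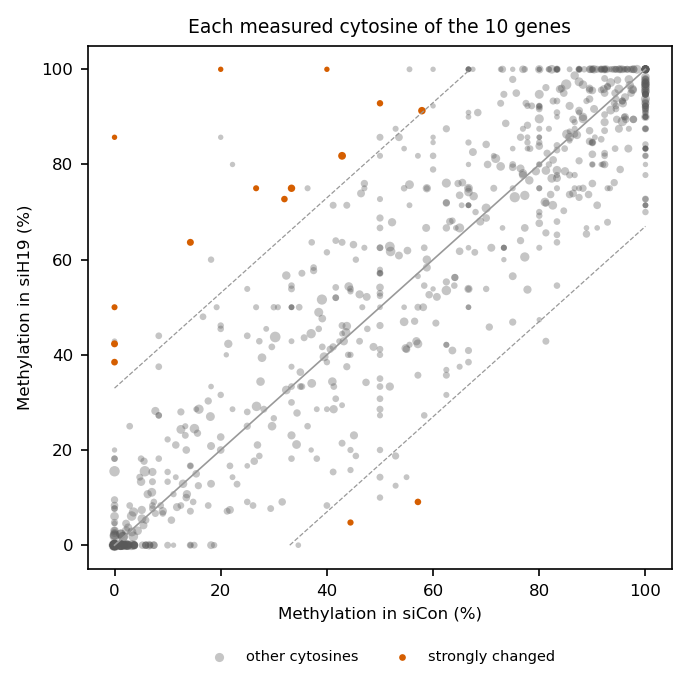
Level of each of the 882 cytosines in siH19 (%) against siCon (%), with points growing with the lower of the 2 read depths, the solid line marking equality and the dashed lines a difference of 33 points. The 15 strongly changed cytosines (orange) hold 13 above the diagonal and 2 below; the others spread around it at intermediate levels and gather at 0 and 100%.

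The strongly changed cytosines belonged to Ryr1 (9), Jph1 (2), Trdn (2), Cacna1s (1) and Jph2 (1). Of the 9 in Ryr1, 6 lay in the exonic island stretch of chr7:29019362-29020234 and were all higher in siH19. They are not 6 independent observations, since neighbours on a strand share reads: the plus-strand cytosines at 29020098 and 29020104 each rest on 5 reads in siCon and 7 in siH19. The first of these had 1 of 5 and 7 of 7 methylated reads, and the next 0 of 5 and 6 of 7.

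By the lowest p among the strongly changed, 3 cytosines higher in siH19 are described with their surroundings, in which the tested CpG is in capitals. All lie in introns and in soft-masked repeats.
Trdn intron, 188.4 kb into the gene, chr10:33268924-33268983, plus strand: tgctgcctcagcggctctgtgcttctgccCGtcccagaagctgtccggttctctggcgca
Trdn intron, 130.7 kb into the gene, chr10:33211226-33211285, plus strand: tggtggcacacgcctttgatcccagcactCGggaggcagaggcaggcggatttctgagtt
Jph1 intron, 62.54 kb into the gene, chr1:17035320-17035379, minus strand: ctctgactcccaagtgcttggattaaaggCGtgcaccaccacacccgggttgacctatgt
The Trdn cytosine at 33268954 on the minus strand had 0 of 14 methylated reads in siCon (Wilson upper bound 21.5%) and 11 of 26 in siH19, 42.3% (25.5 to 61.1%), with Fisher's exact p = 0.00363. The Trdn cytosine at 33211256 on the minus strand had 2 of 14 and 14 of 22, or 14.3% (4.01 to 39.9%) and 63.6% (43.0 to 80.3%), with p = 0.00572 by Fisher's exact test. The Jph1 cytosine at 17035349 on the plus strand had 5 of 10 and 26 of 28, 50% (23.7 to 76.3%) and 92.9% (77.4 to 98.0%), with an exact p of 0.00802. Each adjusted p was 1. The opposite strand of the Jph1 CpG had 6 of 6 and 9 of 11 methylated reads, in the other direction, and those of the Trdn CpGs were not covered.

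The 2 cytosines lower in siH19 were both in Ryr1 and on the minus strand. At 29059973, in a coding exon, 12 of 21 reads were methylated in siCon, 57.1% (36.5 to 75.5%), and 1 of 11 in siH19, 9.09% (1.62 to 37.7%), with Fisher's exact p = 0.0109 and an adjusted p of 1. Its plus-strand partner had 4 of 19 and 2 of 5. At 29029887, in an intron and a repeat, 4 of 9 and 1 of 21 reads were methylated, 44.4% (18.9 to 73.3%) and 4.76% (0.846 to 22.7%), with an exact p of 0.0195 and an adjusted p of 1. Its partner had 0 of 24 and 1 of 39. Neither partner shared the difference.

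Both strands of a CpG are expected to carry the same state, since maintenance methylation copies it, so the opposite strand serves as a second reading within the same library. Coverage on both strands was available for 382 member CpGs, and within a library plus and minus differed at an unadjusted Fisher's exact p under 0.05 in 19 CpGs (4.97%) in siCon and in 15 (3.93%) in siH19. Over all 755414 CpGs with both strands covered the shares were 3.51% and 3.28%. Between the libraries the same test found 14 member CpGs (3.66%) on the plus strand and 13 (3.40%) on the minus strand, against 2.55% and 2.52% of all. The difference between the strand shares and the library shares was not tested. Of the 15 strongly changed cytosines 11 had a covered partner, of which 2 differed in the same direction, 8 in the opposite one and 1 not at all, and on 0 was the partner strongly changed too. Over all CpGs of this kind (12495), 47.9% had a partner that differed in the same direction and 46.9% in the opposite one. The share with a strongly changed partner is not given for all CpGs, so the 0 of 11 has no background here. The difference between the members and all CpGs in these shares was not tested.

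Both strongly changed CpGs with a shared direction lay in the Ryr1 exonic island. The CpG at 29019876 had 4 of 15 methylated reads in siCon and 6 of 8 in siH19 on the plus strand (Fisher's exact p = 0.0393), and 1 of 12 and 11 of 25 on the minus strand (p = 0.0581 by the exact test). The CpG at 29020104 had 0 of 5 and 6 of 7 on the plus strand (exact p = 0.0152), whereas its minus strand, with 7 of 17 and 10 of 24, was at 41.2% and 41.7%. Whatever the p-value, 3 of the 382 CpGs differed by at least 33 points the same way on both strands, 0.785% against 0.0924% of all. These shares were not matched for level, and the 3 CpGs were looked for after the values were seen. All were in Ryr1, namely the CpG at 29019876 and 2 intronic CpGs that share reads. At 29040549 the plus strand had 9 of 17 and 7 of 8 methylated reads and the minus strand 8 of 16 and 12 of 14. At 29040565 the plus strand had 9 of 17 and 1 of 8 and the minus strand 8 of 16 and 2 of 14. So these neighbours went in opposite directions, and neither strand of either one passed Fisher's exact test.

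Other genes of muscle calcium handling were read in the same test, as a list of 24 that covers release, entry, pumping, buffering and triad structure. Of these 22 had measured body cytosines, all but Sln and Pln, and 20 could be tested. Of the 20, 0 were called, 12 differences were above 0 and 8 below, and the median was 0.0856 points, beside 0.131 over all gene bodies. At an unadjusted p under 0.05 there were 3, all higher in siH19, against a background of 5.82% in both directions. These were Asph, whose locus gives junctin (26.4% and 28.3%, p = 0.0126, adjusted p = 0.787, n = 42 fragment strands), Atp2a2, the cardiac and slow SERCA2 pump (10.1% and 11%), and Cacna1c, the cardiac calcium channel (24.2% and 25.1%), and they are named here after their values were seen. The largest differences in size were those of Jsrp1, a junctional protein that binds the calcium channel, with 73.8% and 70.0% (-3.79 points ± 2.68), Cav3, the caveolin of muscle membranes, with 54.1% and 57.3% (3.26 points ± 3.18), and Stim1, the calcium sensor of store-operated entry, with 70.6% and 68.3% (-2.32 points ± 1.45). None of these 3 passed the test, adjusted or unadjusted. Of 18 promoters of the list that could be tested, 0 were called, while the Cochran-Mantel-Haenszel test called 1, against 7.85% of all promoters.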

How the data were processed

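Reduced representation bisulfite libraries of siCon and siH19 myotubes, 1 per group, were analysed, and groups were taken from the labels. The authors used Bismark as a non-directional aligner, per their methods, and trimmed filled-in bases when methylation was called. The submitters' processing notes list bcl2fastq 1.8.4 and mm10, and all 10709359 deposited entries on assembled chromosomes fell on CpGs of GRCm38. Each deposited entry held methylated and total reads of 1 cytosine in a text field, in another unit than a plain number, and a score (the methylated fraction, scaled) that matched the parsed counts in 100% of entries. Counts were not normalized. Removal of duplicate reads was not stated in the sources used here.

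A minimum of 5 reads per library was required of each cytosine, those in CCGG and TCGA were removed, and strands were kept apart, at median depths of 24 and 24 over 1850635 cytosines. The gene annotation was GENCODE vM21 (basic). Promoters were windows of 1 kb each side of annotated starts. CpG islands were stretches of at least 500 bp built from 200 bp windows with a GC content of 55% or more and observed over expected CpG of 0.65 or more (17571 islands); this definition was chosen after the files were seen, since a looser one gave far more islands. Single cytosines were compared with a two-sided Fisher's exact test. Regions with at least 5 cytosines on at least 3 fragment strands were tested by a Cochran-Mantel-Haenszel score stratified by cytosine, its variance scaled by the spread between fragment strands (quasi-score), and levels used the same weights in both libraries. The n printed with a region p-value counts covered fragment strands. Strands on which no cytosine held both methylated and unmethylated reads added nothing to the test, so it could rest on fewer strands. P-values were adjusted by Benjamini-Hochberg over all cytosines or regions. Wilson 95% intervals reflect counting error only, because PCR copies of a molecule could not be told apart. The region test was tried on simulated data; the simulated noise between fragments was lowered after a stronger setting gave too many small unadjusted p-values, so unadjusted p-values of regions may be too small where fragments differ strongly.

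Named were all members, called genes of the calcium-handling list or otherwise the 3 with the largest differences among those with at least 10 body cytosines, and, of member cytosines, those past adjustment or otherwise the 3 strongly changed ones with the lowest p in each direction (2 existed that were lower), plus CpGs differing the same way on both strands. Other single cytosines and stretches described in the text are examples outside this naming rule, picked with their values already seen. Members and lists were chosen with earlier results of these data known. Python 3.11.15, numpy 2.4.6, pandas 2.3.3, scipy 1.17.1, numba 0.67.0 and matplotlib 3.10.9 were used. Alternatives were a read minimum of 10, summed strands, restriction-site cytosines included, deepest cytosines or soft-masked repeats left out, a window of 500 bp, a threshold of 25 points, unweighted levels, the unscaled score and summed reads. The sequence of 1 measured run is not reported here.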

Additional observations from a re-analysis of the deposited data

Results flagged for a closer look

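A set of 3 cytosines inside the cut sequences, which no comparison above used, had an adjusted p under 0.05 (Fisher's exact test, two-sided, adjusted over all 3413804 cytosines with cut sequences included), out of 677 such member cytosines, or 0.443% against 0.470% of all 1563169 cytosines inside the cut sequences, so their number was near that background. They are given because they passed adjustment outside the main measurement. In Jph1 the plus-strand cytosine at chr1:17097134 had 3 of 57 methylated reads in siCon and 22 of 48 in siH19, a difference of 40.6 points (Fisher's exact test, adjusted p = 0.00259), while its minus-strand partner had 96.5% and 86.0%. In Jph2 the minus-strand cytosine at chr2:163364778 had 32 of 102 and 50 of 65, a difference of 45.6 points (Fisher's exact test, adjusted p = 8.39e-05), while its partner had 40.0% and 14.3%. In Ryr1 the plus-strand cytosine at chr7:29090984 had 17 of 32 and 32 of 33, a difference of 43.8 points (Fisher's exact test, adjusted p = 0.0212), while its partner had 11.1% and 8.70%. In each case the strands of the CpG differed within a library and the partner did not share the direction. Filled-in bases can be read at these positions, and their part in these values was not tested.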

How the results depend on the processing

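There was 1 library per group, so no difference could be set against the spread between cultures, and at a median of 19 reads only large differences at single cytosines could be seen. The 15 strongly changed of 882 cytosines (1.70%, against 0.987% of all) became 9 of 648 (1.39% against 0.773%) at a read minimum of 10, 8 of 513 (1.56% against 0.757%) with strands summed, 7 of 809 (0.865% against 0.805%) without soft-masked repeats and 25 of 1559 (1.60% against 1.42%) with restriction-site cytosines. Including those sites also gave 3 instead of 0 past adjustment. Fisher's exact test on summed reads called 5 member bodies and 1 promoter instead of 0, but it called 39.4% of all bodies and 20.5% of all promoters. Summed reads gave 9.80 points for Jph2, 10.3 for Cacna1s and 6.75 for Atp2a1 in place of 1.73, 2.71 and 3.23, so the order of members by difference depended on the weighting. Differences changed sign as follows, with no cause tested. The Jph1 body was 0.00226 points at a read minimum of 10, 0.303 with restriction-site cytosines, 2.61 on summed reads and 0.251 unweighted. The Ryr1 body was -1.46 on summed reads. The Casq2 body was -4.93 on summed reads and -0.0601 unweighted. The Trdn body was -1.26 without soft-masked repeats and -0.183 unweighted. The Ryr1 promoter was 0.182 with restriction-site cytosines and 1.16 on summed reads, the Jph1 promoter 0.269 and the Jph2 promoter -1.83 with restriction-site cytosines.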
